A study of Mus musculus with 5375 samples.

Results

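Proliferative tumor cells (TCs) taken from mouse lungs on day 3.5 after injection were compared with extravascular TCs taken on day 1.5. The members were the cells that the authors kept from these 2 sort gates, together 543 of 768 sorted, out of 1566 TCs kept and 5375 TCs and endothelial cells sorted in all. All TCs were 4T1-GFP cells, a mouse mammary carcinoma line from the BALB/c strain that makes green fluorescent protein. They were labeled with CellTrace, a dye that each division shares out between the daughter cells, and given by tail vein in 2 injections to wild-type female BALB/c mice. On day 1.5 an antibody to H-2Kd, a surface protein of all cells of this strain, was given into the blood shortly before sampling, and TCs that it had not stained were sorted as extravascular. On day 3.5 the proliferative gate held TCs with diluted dye and the latent gate TCs that had kept as much dye as day 1.5 TCs, in both cases whether or not they had left the vessels. By the study's methods the mice were young adults.

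The extravascular cells came from 4 animals (75, 80, 69 and 82 cells kept of 96 sorted in animals 1 to 4). The deposited annotation gave every proliferative cell the same animal, which also supplied latent replicate 4, whereas the sample labels list 4 proliferative replicates and the study's methods describe matched latent and proliferative plates from 4 animals. No cell could be tied to any of these replicates. The proliferative cells were therefore summed as 1 pool. The 4 latent animals (80 to 85 kept cells each) and 4 intravascular animals of day 1.5, whose TCs the antibody had stained (79 to 84 each), entered the fit to estimate the spread between libraries, and the pool was assumed to vary like them. The intravascular libraries came from the same 4 animals as the extravascular libraries, and the fit took the libraries as independent. Each gate was sequenced in its own lane, so gate, day and lane cannot be told apart. To show how even the pool was, values are also given for its 4 blocks of 96 consecutive cell numbers (60, 58, 58 and 61 kept cells). In the other gates such a block was 1 animal, but the annotation does not say so for the proliferative gate.

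A TC that has left the vessel attaches to the basement membrane and the matrix of the lung through integrins, receptors that bind laminins and other matrix proteins outside the cell and, through kindlins and talin, the actin skeleton inside. Laminin-332 is the laminin on which epithelial cells rest. A cell that enters division builds the replication machinery in S phase and the mitotic machinery in G2, whereas ribosomal proteins, the respiratory chain and the secretory route follow growth and protein output. Immediate early genes such as Fos and Dusp1 are transcribed within minutes of a signal through growth factor or stress kinases, and they respond also to handling of tissue.

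Reads of the kept cells summed, in units of 1000000 reads, to 163.48 in the pool (39.81 to 41.97 per block), 33.2 to 48.08 per extravascular animal and 31.89 to 44.97 per latent animal. Detected genes per cell had a median of 7145 in the pool, and the medians were 5721 to 6080.5 in extravascular animals and 6554.5 to 6869.5 in latent animals. The median share of mitochondrial reads was 2.078% in the pool and 2.226% to 3.158% in extravascular animals. Over 4752 genes, Pearson correlations of log2 levels were 0.956 to 0.978 between extravascular animals and 0.903 to 0.952 between the pool and these animals. The epithelial genes of the 4T1 line were present throughout: Krt8, a keratin, stood at 1165 to 2017 counts per 1000000 reads (CPM) in extravascular animals and 2399 in the pool, and Krt18 at 1504 to 2176 and 2309. Krt7 stood at 571 to 903 CPM and 846, Epcam, an epithelial adhesion molecule, at 254.3 to 418 and 260.7, and Cdh1, E-cadherin, at 72.9 to 111.5 and 47.3, and none of these passed the test. Summed CPM of marker lists of other cells were, in extravascular animals and in the pool, 23.2 to 30.5 and 35.9 for endothelial cells, 10.4 to 26.3 and 21.4 for macrophages, 1.93 to 3.09 and 1.41 for lymphocytes, 0.485 to 2.34 and 2.24 for platelets, 2.54 to 6.64 and 5.63 for red cells, 1.88 to 4.35 and 2.23 for fibroblasts, and 5.12 to 9.50 and 4.11 for alveolar and airway epithelium. The neutrophil list summed to 59.9 to 93.7 and 28, nearly all of it Cxcr2. In latent animals 1 to 4 the macrophage list summed to 271.1, 25.2, 26.1 and 179.1 CPM and the endothelial list to 51.4, 22.7, 29.3 and 63.02, so that latent animals 1 and 4 stood apart. CPM are scaled by the trimmed mean of M-values (TMM), and in such sums fewer cells expressing a gene and less RNA per cell cannot be told apart.

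Among genes that passed the test, Itgb1 and Lamb3, of adhesion to laminin, 17 ribosomal protein genes and 3 nuclear genes of oxidative phosphorylation were lower in the pool than in extravascular TCs. The immediate early genes Dusp1, Fos and Myc and the immunoproteasome subunits Psmb8 and Psmb9 were higher. The call of Myc was lost in 11 of 19 alternatives to the test (below). Of 19249 genes tested, 0.696% were called at an adjusted p under 0.05 (edgeR quasi-likelihood test, Benjamini-Hochberg), 26 of them higher (0.135%) and the others lower (0.561%). At an unadjusted p under 0.05 there were 1074 higher (5.58%) and 972 lower (5.05%), together 10.6%. The median log2 fold change, proliferative minus extravascular throughout, was -0.06 over all genes, 1.58 over the higher genes and -0.84 over the lower genes. Every block lay below all 4 extravascular animals for each lower gene and above them for 23 of the 26 higher genes, as the choice of called genes favors. Over all genes every block lay below the 4 animals in 9.57% and above them in 6.98%. The number of calls rested on extravascular animal 4: without it 3 genes were higher and 3 lower, of which Itgb1, Psmb8, Cirbp, mt-Nd4l and Gm14706 were called with all animals and Tinagl1 was not, and without animal 1, 2 or 3 there were 13, 31 and 17 higher and 64, 87 and 63 lower. A fit of the 5 libraries alone called no gene by edgeR (1459 at an unadjusted p under 0.05), and a fit without the 4 intravascular libraries called 16 higher and 23 lower. DESeq2 on all 13 libraries called 1.3% of genes higher and 2.28% lower, and on simulated data it recovered more of the changed genes than edgeR and also called more unchanged ones. In the same simulated data edgeR missed most genes changed by 1 on the log2 scale, so a gene that did not pass is not shown to be alike in the pool and the animals. The share of calls that were higher, 19.4%, moved with the processing. With every cell scaled to the same total and limma in place of edgeR 72 were higher and 45 lower (61.5% higher), and on mean log10 values as deposited 1351 were higher, 90.8% of the calls, with a median of 0.11 over all genes. With each library centered on its median, 996 were higher and 585 lower (63%). The part of cell weighting and of the test in these moves was not told apart.

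Among the lower genes 40 were predicted, pseudogene, mitochondrial or unnamed, kinds that made up 23.9% of all genes tested, and 68 were of none of these kinds. Of all lower genes 52 overlapped another annotated gene. Their transcripts were short, with a median length of 618.5 bases against 1217.75 over all genes tested, weakly expressed ones included. The higher genes had a median of 855.75 bases. Genes of at least 20 CPM were ranked by length and cut into 5 equal sets, the middle one with a median of 933 bases. The shortest set (943 genes, median 551.5 bases) held 59 lower calls and had a median log2 fold change of -0.24. Each of the other sets held 10 to 13 lower calls, with medians, from shorter to longer genes, of 0.06, 0.13, 0.14 and -0.15. The part of transcript length in these calls was not tested.

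A gene of laminin-332 and genes of integrin linkage were among the lower genes with the largest differences. Lamb3 (chr1:193207699-193343878, GRCm38), the β3 chain of laminin-332, stood at 86.6, 84.95, 86.6 and 69.8 CPM in extravascular animals 1 to 4 and at 22.8 in the pool, with 10.6 to 29.6 in its blocks. The groups did not overlap, and every block lay below every animal. The log2 fold change was -1.85 ± 0.31 (SE, adjusted p = 0.0259, edgeR quasi-likelihood). Several genes overlap Lamb3, and the counting is not stated to use strand.

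Itgb1 (chr8:128685654-128733200), the β1 integrin chain that pairs with many α chains, had the smallest p of all genes. Its levels were 684, 622, 715 and 670 CPM in the 4 animals and 260.9 in the pool, with 233.8 to 286.3 in the blocks, so that the pool stood well below each animal. The log2 fold change was -1.37 ± 0.15 (adjusted p = 0.0149, edgeR). Fermt1 (chr2:132904389-132945906), kindlin-1, which activates β1 integrins in epithelial cells, stood at 276.04, 261.1, 213.5 and 210.96 CPM against 91.4 (blocks 76.8 to 101.6), a log2 fold change of -1.40 ± 0.23 (adjusted p = 0.0242, edgeR). Of 11 genes of laminin-332, its integrins and their linkers, Lamb3, Itgb1 and Fermt1 were lower, where 0.561% of all genes were. The list was drawn up after values had been seen, so its counts are a description and lend no support to a difference of the group. The other members did not pass the test: Itga3, the α3 chain, stood at 132.9, 175.4, 170.8 and 212.5 CPM against 104.99 (adjusted p = 0.318, edgeR), and Lama3, the α3 chain of laminin-332, at 7.27, 19.7, 20.2 and 19.2 against 6.80 (adjusted p = 0.423). Itgb4, the integrin chain of hemidesmosomes, stood at 45.8, 46.2, 70.7 and 50.3 CPM against 62.1, within the range of the animals.

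Fbln2 (chr6:91212455-91272540), fibulin-2, a basement membrane glycoprotein, stood at 56.5, 77.4, 72.03 and 70.04 CPM in the animals and 19.9 in the pool (blocks 11.6 to 25.5). The log2 fold change was -1.79 ± 0.29 (adjusted p = 0.0242, edgeR). Pmepa1 (chr2:173224458-173276533), a TGF-β-induced membrane protein that restrains TGF-β signaling, stood at 48.2, 40.3, 39.6 and 40.03 CPM and 11.4 (blocks 5.22 to 17.2), a log2 fold change of -1.89 ± 0.32 (adjusted p = 0.0259, edgeR). Both genes were lower in each block than in any animal. Among 32 genes of integrins and matrix Itgb1 and Lamb3 were lower, against 0.561% of all genes, none was higher and the median log2 fold change was -0.31, against -0.06. Matrix genes did not all stand lower: Sparc, a secreted matricellular glycoprotein, was at 191.2, 242.8, 212.03 and 230.4 CPM against 450 in the pool (adjusted p = 0.123, edgeR), and Spp1, osteopontin, at 394, 679, 785 and 720 against 2074 (adjusted p = 0.274).

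**Figure D1:**
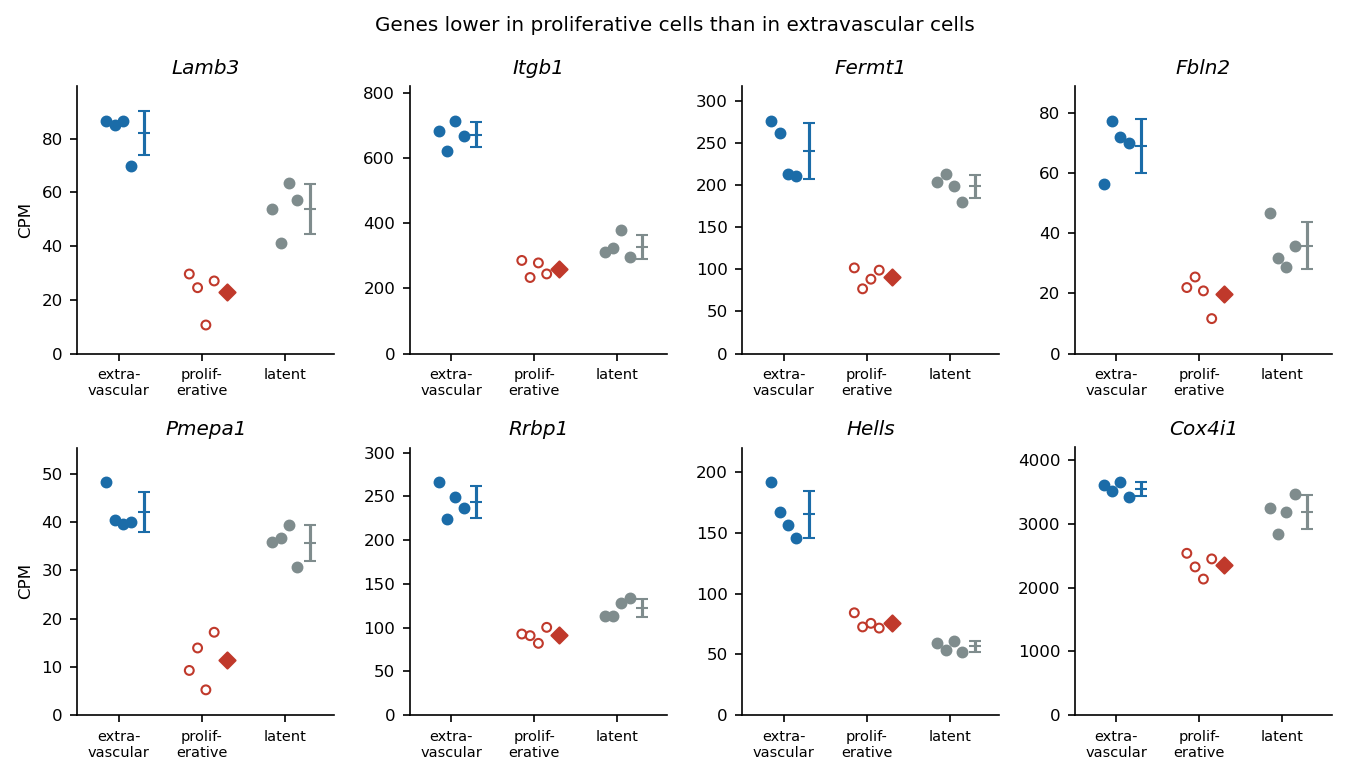
Each panel plots the CPM (linear axis from 0) of 1 gene in the 4 extravascular animals (blue), the proliferative pool (red diamond) with its 4 blocks of cells (open circles), and the 4 latent animals (gray), and bars give the mean and SD of 4 animals. In all 8 panels the pool and its blocks lie below every extravascular animal, and for Itgb1 the pool stands at 260.9 CPM against 622 to 715.

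Further lower genes act at the endoplasmic reticulum and in the nucleolus. Rrbp1 (chr2:143947395-144011263), the ribosome-binding protein of the rough endoplasmic reticulum, stood at 265.9, 223.8, 249.1 and 236.04 CPM in the animals and 91.3 in the pool (blocks 81.9 to 100.2), well apart, with a log2 fold change of -1.42 ± 0.19 (adjusted p = 0.0242, edgeR). Sec62, of the protein translocation channel, stood at 357.7, 222.1, 278.8 and 246.7 CPM against 121.6, and Srpr, the receptor of the signal recognition particle, at 615, 516, 513 and 543 against 322.6. Both passed the test (adjusted p = 0.0381 and 0.0335, edgeR) and were picked out after their values were seen. No gene of the 15 endoplasmic reticulum chaperones passed it, and Hspa5, the main one, stood at 1238, 1170, 1307 and 1597 CPM against 1016. Of 35 genes of ribosome biogenesis 2 were lower, against 0.561% of all genes: Ncl, nucleolin, at 1909, 1702, 1833 and 1792 CPM against 1117 (log2 fold change -0.70 ± 0.12, adjusted p = 0.0242, edgeR), and Ddx21, a nucleolar RNA helicase, at 106.3, 112.6, 117.3 and 106.6 against 54.4 (-1.02 ± 0.19, adjusted p = 0.0306). The median over these 35 genes was -0.02, and over the 20 settings (the test as reported and 19 alternatives) it lay between -0.15 and 0.36.

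Of 78 cytosolic ribosomal protein genes tested, 17 were lower, against 0.561% of all genes, and none was higher. An estimate above 0 was found for 6 of them, against 44.6% of all genes. This list was also drawn up after values had been seen, and its counts are likewise a description. The median log2 fold change was -0.46, the mean log2 CPM was 10.02 to 10.10 in the animals and 9.64 in the pool (blocks 9.55 to 9.76), and the pool lay below all 4 animals for 67 of the 78, against 19.2% of all genes. Rpl32, a protein of the large subunit, stood at 3140, 3102, 3005 and 2963 CPM against 1992, a log2 fold change of -0.62 ± 0.10 (adjusted p = 0.0242, edgeR). Rpl35, Rps15a and Rpl31 were lower by the same test. Reads of these genes can be split with their many processed pseudogenes, several of which were themselves among the lower genes, so the values of single members are uncertain. The shortest set of genes by transcript length had a median of -0.24 (above), nearer to this list than all genes. The part of length in these values was not tested.

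Of 76 nuclear genes of oxidative phosphorylation 3 were lower, against 0.561% of all genes, and the median log2 fold change was -0.35, against -0.06. Cox4i1, a subunit of cytochrome c oxidase, stood at 3603, 3521, 3651 and 3416 CPM against 2359 in the pool (log2 fold change -0.59 ± 0.10, adjusted p = 0.0242, edgeR). The other members that passed were Atp5j2, of ATP synthase (825, 764, 835 and 800 CPM against 515), and Uqcrq, of complex III (847, 741, 738 and 708 against 478), whose calls were lost in 10 and 12 of 19 alternative settings. The shortest set of genes had a median of -0.24 (above), and the part of transcript length in the nuclear list was not tested. All 13 genes of the mitochondrial genome had an estimate below 0, with a median of -0.68, and 2 were lower, against 0.561% of all genes: mt-Nd4l at 1446, 1292, 1508 and 1241 CPM against 694 (-0.98 ± 0.14, adjusted p = 0.0242, edgeR) and mt-Nd4 at 1134, 1398, 1333 and 1125 against 672 (-0.89 ± 0.16, adjusted p = 0.0318). These genes overlap each other, both encode subunits of complex I, and the share of mitochondrial reads per cell was also lower in the pool (above). Among 18 genes of glycolysis none passed the test, 13 had an estimate above 0 and the median was 0.52. Ldha, lactate dehydrogenase A, stood at 553, 885, 868 and 1016 CPM against 1179 (adjusted p = 0.666, edgeR). Gapdh, the glyceraldehyde phosphate dehydrogenase, stood at 658, 846, 869 and 830 CPM against 793 (log2 fold change -0.01 ± 0.16).

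In a list of 14 heat shock genes, cytosolic but for Hspd1 and Hspe1, 1 was lower, against 0.561% of all genes. It was Hspe1, whose protein is a co-chaperonin of mitochondria, at 661, 524, 561 and 529 CPM against 302.9 (log2 fold change -0.91 ± 0.16, adjusted p = 0.0282, edgeR). It overlaps Hspd1 on the opposite strand. Hsp90aa1, the inducible cytosolic chaperone, stood at 3910, 3996, 3271 and 3368 CPM against 2235 and missed the threshold (adjusted p = 0.0565). The median of the list was -0.54, against -0.06 over all genes. With predicted genes, pseudogenes and mitochondrial genes left out, among the 12 lower genes with the largest log2 fold change were also Zfp934, a zinc finger protein (62.2, 70.2, 56.1 and 53.4 CPM against 15.9), Btbd7 (143.7, 110.3, 93.4 and 109.6 against 41.3), Pbld1 (99.5, 66.2, 74.1 and 67.2 against 28.2) and Nmnat1, an enzyme of NAD synthesis in the nucleus (177.3, 123.6, 130.1 and 127.2 against 54.4). Each of these overlaps another annotated gene, and the call of Nmnat1 was lost in 11 of 19 alternative settings. Cxcr2, a chemokine receptor best known from neutrophils, stood at 92.9, 59.7, 65.7 and 82.5 CPM in the animals and 27.5 in the pool (log2 fold change -1.45 ± 0.27, adjusted p = 0.0318, edgeR). In the extravascular animals S100a8, which neutrophils express in abundance, stood at 0 to 0.152 CPM, Retnlg at 0 to 0.518 and Ltf at 0 to 0.0275, and S100a9, Ly6g and Mmp8 were at 0. In the pool S100a8 and S100a9 stood at 0.0630 CPM each and the other 4 were at 0.

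Among the higher genes at 20 CPM or more the largest log2 fold change was that of S100a16 (chr3:90537254-90543151), a calcium-binding protein. It stood at 7.74, 8.84, 9.34 and 9.34 CPM in extravascular animals and 55.6 in the pool (blocks 39.98 to 71.8), with no overlap and a log2 fold change of 2.66 ± 0.43 (adjusted p = 0.0242, edgeR). Deptor (chr15:55112317-55259271), an inhibitor of the growth kinase mTOR, stood at 4.63, 5.60, 4.30 and 8.89 CPM against 32.7 (blocks 21.6 to 44.4), a log2 fold change of 2.48 ± 0.44 (adjusted p = 0.0292). Cirbp (chr10:80165985-80172786), a cold-inducible RNA-binding protein, stood at 6.003, 12.2, 7.70 and 9.68 CPM against 37.1 (blocks 31.9 to 42.6), a log2 fold change of 2.06 ± 0.29 (adjusted p = 0.0242). For these 3 genes every block lay above every animal. The call of Deptor was lost in 6 of 19 alternative settings, among them each fit that left out 1 of the 4 extravascular animals.

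Some of the other higher genes code for secreted and surface proteins, a grouping made after their values were seen. Ecm1, extracellular matrix protein 1, stood at 140.2, 154.8, 156.1 and 158.5 CPM against 362.1 in the pool (log2 fold change 1.25 ± 0.21, adjusted p = 0.0242, edgeR), Lgals3bp, a secreted galectin-3 ligand, at 19.4, 26.2, 25.6 and 17.9 against 67.9 (1.61 ± 0.29, adjusted p = 0.0306), and Mfge8, a secreted bridge between integrins and phosphatidylserine, at 57.4, 56.6, 63.6 and 68.5 against 138.9. Slc29a1, the nucleoside transporter that carries thymidine and adenosine into the cell, stood at 36.4, 52.1, 68.7 and 65.7 CPM against 163.7 (1.56 ± 0.28, adjusted p = 0.0306, edgeR). The pool lay above every animal for each of these genes. Map2k5, a kinase of the ERK5 cascade, at 7.16, 8.20, 7.28 and 7.20 CPM against 25.2, Mospd3, a tether of the endoplasmic reticulum, at 16.96, 22.2, 19.5 and 20.3 against 51.1, and Uap1l1 at 20.5, 28.3, 32.2 and 21.3 against 64.8, all passed the test. The 12 higher genes with the largest log2 fold change at 20 CPM or more were these 3, S100a16, Deptor, Cirbp, Lgals3bp and Slc29a1, and Dusp1, Fos, Psmb8 and Psmb9, which are described below. Fzr1, the co-activator that holds the anaphase-promoting complex active in G1, stood at 21.6, 25.6, 28.01 and 29.1 CPM against 58.6 (1.17 ± 0.22, adjusted p = 0.0318). Fzr1 and Mfge8 were picked out after their values were seen, and Fzr1 overlaps a gene on the other strand.

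**Figure D2:**
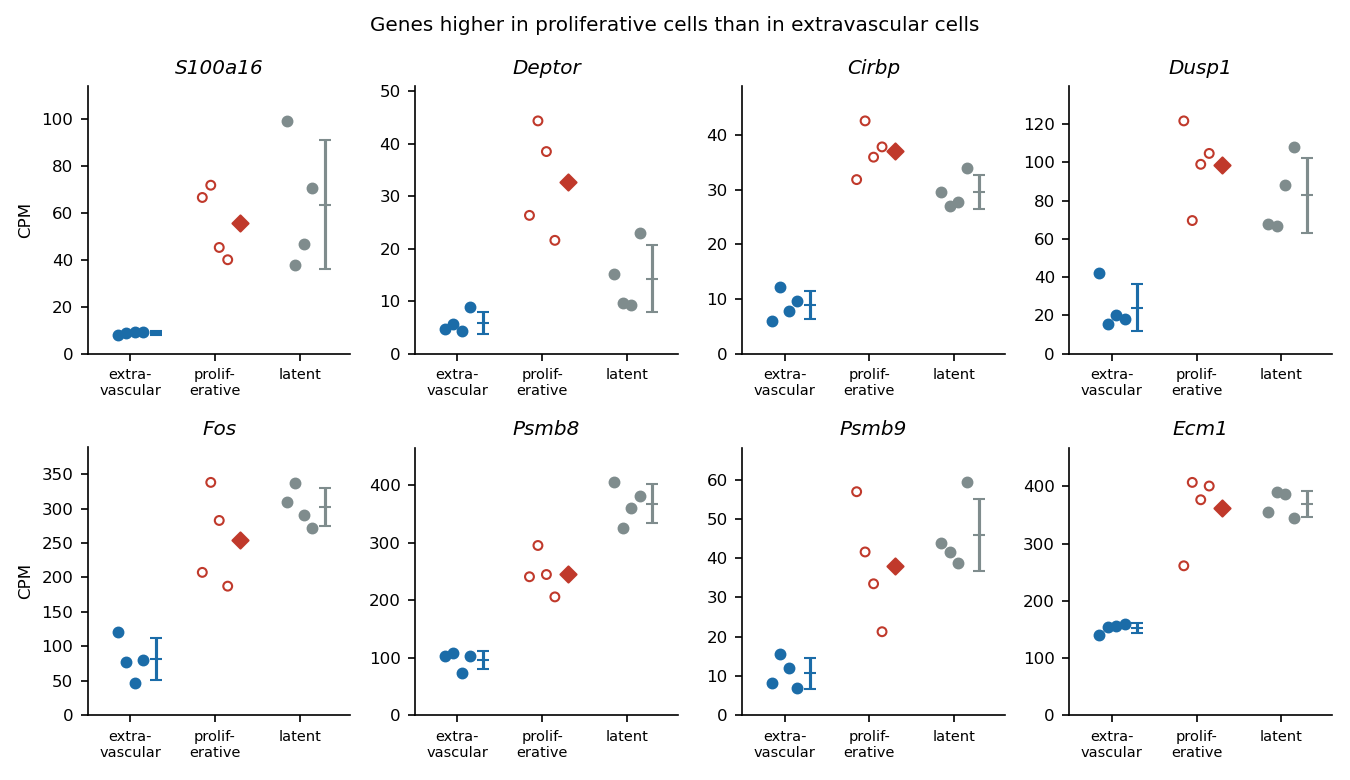
Each panel plots the CPM (linear axis from 0) of 1 gene in the 4 extravascular animals (blue), the proliferative pool (red diamond) with its 4 blocks of cells (open circles), and the 4 latent animals (gray), and bars give the mean and SD of 4 animals. In all 8 panels the pool and every block lie above the extravascular animals, and the latent animals lie near the pool for most genes, as for Fos with 271.5 to 337.6 CPM against 253.6.

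Of the 26 higher genes 5 stood under 20 CPM in all 5 libraries, and they were picked out for that after their values were seen. Pdcd1 had 0 reads in the extravascular animals and stood at 2.19 CPM in the pool, from 9 cells. Cela1 had 0 reads against 0.933 CPM from 7 cells, and Cidea 0 against 77 reads in 1 cell. Mturn had 3 reads in 3 extravascular cells against 0.893 CPM from 7 pool cells, and Ngfr 11 reads in 6 cells against 515 in 22 cells. Their levels rest on few cells, and no fold change is given for them.

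Of 23 immediate early genes tested, 3 were higher, against 0.135% of all genes, 21 had an estimate above 0, against 44.6% of all genes, and the median log2 fold change was 0.80. The mean log2 CPM of the list was 4.25 to 4.67 in extravascular animals and 5.19 in the pool (blocks 4.94 to 5.33). Dusp1, a phosphatase that inactivates MAP kinases, stood at 42.05, 15.2, 20.3 and 18.1 CPM against 98.7 (blocks 69.5 to 121.7), with a log2 fold change of 2.05 ± 0.41 (adjusted p = 0.0405, edgeR). Fos, a subunit of the AP-1 transcription factor, stood at 120.4, 77.4, 45.9 and 79.4 CPM against 253.6 (blocks 187.2 to 337.99), with a log2 fold change of 1.65 ± 0.32 (adjusted p = 0.0364). For both genes animal 1 was the highest of its group and still below every block. Jun, its partner in AP-1, stood at 99.96, 99.3, 90.2 and 83.2 CPM against 207.4 (adjusted p = 0.0568, edgeR) and Nr4a1, a nuclear receptor induced by signals, at 4.76, 3.70, 3.27 and 5.11 against 20.4 (adjusted p = 0.0591), and neither passed the test.

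Myc, the growth transcription factor, stood at 57.6, 46.2, 52.4 and 49.7 CPM in the animals and 103.1 in the pool, a log2 fold change of 1.00 ± 0.20 (adjusted p = 0.0404, edgeR). In 1 cell lay 23.005% of the pool's Myc reads, the blocks ranged from 43.1 to 178.4 CPM, so that the lowest lay below every animal, and the call was lost in 11 of 19 alternative settings. Myc was also the gene that passed in the lists of Wnt targets and feedback (17 tested, median -0.06), canonical Wnt (41, median -0.07), the whole Wnt pathway (median -0.03) and stemness and dormancy (11, median 0.12), where 0.135% of all genes were higher.

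The promoters of Fos and Dusp1, genes known to be induced through CREB, are shown as background, and none was found for Myc. The motif was chosen for that known link. Its share among immediate early genes is therefore no result about these data. The letters TGACGT, the core of the cAMP response element that CREB binds, were searched on both strands in the 250 bases before each RefSeq start on GRCm38.p6. They occurred in 2125 of 32851 windows (6.47%), in 9 of 24 windows of immediate early genes (37.5%), in 3 of 35 windows of higher genes (8.57%) and in 9 of 75 windows of lower genes (12%). The window of Fos (chr12:85473640-85473889, plus strand) held 1 match, beginning 66 bases before the start. That of Dusp1 (chr17:26508520-26508722, minus strand, shorter by 47 bases that are exonic in another annotation) held 3 matches, of which a pair are both strands of the palindrome TGACGTCA. Capitals mark the matches, which are letters and no proof of binding.
Fos: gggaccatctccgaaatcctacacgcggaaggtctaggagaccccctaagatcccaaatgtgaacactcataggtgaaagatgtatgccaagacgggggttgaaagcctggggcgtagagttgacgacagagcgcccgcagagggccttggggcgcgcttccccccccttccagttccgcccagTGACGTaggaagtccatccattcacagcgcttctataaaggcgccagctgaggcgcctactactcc
Dusp1: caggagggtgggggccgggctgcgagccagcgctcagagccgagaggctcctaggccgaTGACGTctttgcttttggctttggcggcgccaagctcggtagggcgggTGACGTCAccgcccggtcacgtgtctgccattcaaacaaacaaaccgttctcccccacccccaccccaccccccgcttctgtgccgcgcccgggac

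Subunits of the immunoproteasome, which cuts proteins into peptides for presentation on MHC class I, were higher. Psmb8 (chr17:34197721-34201454) stood at 102.5, 107.8, 72.7 and 102.2 CPM in the animals and 246.2 in the pool (blocks 205.7 to 295.2), a log2 fold change of 1.35 ± 0.19 (adjusted p = 0.0242, edgeR). Psmb9 (chr17:34181987-34187764), which overlaps the peptide transporter gene Tap1 on the opposite strand, stood at 8.07, 15.6, 11.9 and 6.91 CPM against 38.05 (blocks 21.2 to 56.9), a log2 fold change of 1.84 ± 0.35 (adjusted p = 0.0357). In both genes every block lay above every animal. The remaining inducible subunit, Psmb10, stood at 211.6, 222.1, 182.2 and 199.004 CPM against 303.3 and missed the threshold (adjusted p = 0.0867, edgeR). Of 19 genes of MHC class I and peptide loading these 2 were higher, against 0.135% of all genes, 14 had an estimate above 0, against 44.6%, and the median was 0.61. The class I heavy chain H2-K1, which carries the epitope of the antibody used on day 1.5, stood at 225.5, 338.5, 340.03 and 360.03 CPM against 493 (0.64 ± 0.32, adjusted p = 0.519, edgeR), and the light chain B2m at 2125, 2242, 2107 and 1717 against 1518 (adjusted p = 0.415). Of 46 interferon response genes none passed the test, and 29 had an estimate above 0, with a median of 0.44 that lay between 0.11 and 1.27 over the 20 settings. The list's mean log2 CPM was 2.58, 3.6, 2.49 and 2.36 in animals 1 to 4 and 3.36 in the pool, so that animal 2 stood above the pool. Ifitm3, an antiviral membrane protein, stood at 1276, 996, 985 and 999 CPM against 1142.

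**Figure D3:**
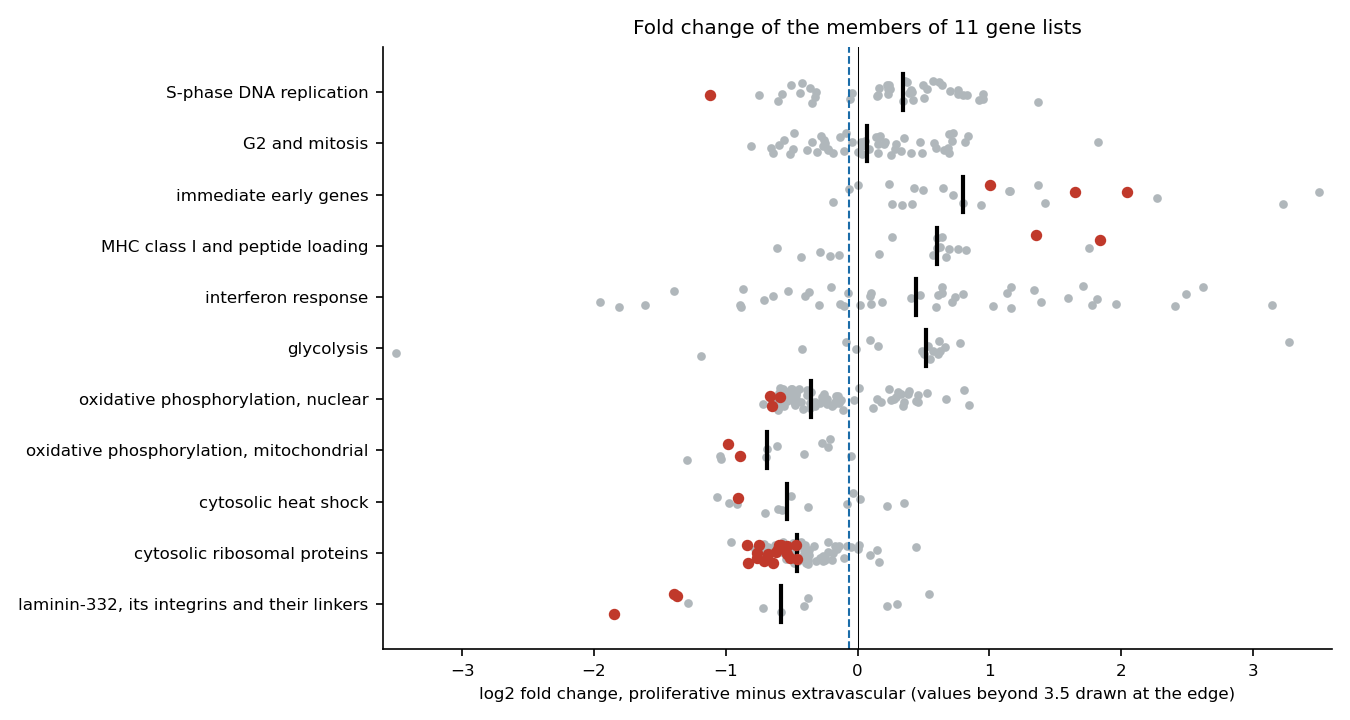
Each point is a gene, placed by its log2 fold change (x axis, proliferative minus extravascular, beyond 3.5 drawn at the edge) in its gene list (y axis). Red points passed the test, black bars mark list medians and the dashed line marks the median of all genes, -0.06. Ribosomal protein genes (median -0.46) crowd below 0, immediate early genes (0.80) lie mostly above it, and G2 and mitosis genes (0.07) are spread around it.

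Among cell cycle genes, 43 of S phase, 54 of G2 and mitosis and 23 of G1 control, 1 passed the test, against 0.696% of all genes. Dye dilution set the day 3.5 gates alone. Of 43 S-phase replication genes 1 was called and it was lower, 30 had an estimate above 0 and the median was 0.35. The mean log2 CPM of the list was 5.27, 5.36, 5.32 and 5.45 in the animals and 5.60 in the pool, and its blocks (5.46 to 5.77) all lay above the animals. The lower gene, Hells (chr19:38930915-38971051), a chromatin remodeler needed for DNA methylation, stood at 191.5, 166.98, 156.4 and 145.7 CPM against 75.9 (blocks 71.6 to 84.2), a log2 fold change of -1.12 ± 0.18 (adjusted p = 0.0242, edgeR). Rrm2, the ribonucleotide reductase subunit that limits nucleotide supply, stood at 46.2, 72.02, 63.7 and 102.5 CPM against 124.1 (adjusted p = 0.434), and Pcna, the clamp of the replicative polymerases, at 213.5, 232.9, 236.6 and 295.2 against 316.5 (adjusted p = 0.509). The list's median stayed above 0 in all 20 settings, between 0.19 and 0.84.

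Of 54 genes of G2 and mitosis none passed the test by edgeR (5 higher and 2 lower at an unadjusted p under 0.05), 32 had an estimate above 0 and the median was 0.07. The mean log2 CPM was 5.76, 5.86, 6.05 and 5.85 in the animals and 6.01 in the pool, within their range. The smallest adjusted p was that of Aurkb, the mitotic kinase Aurora B, which stood at 10.2, 16.6, 12.7 and 20.7 CPM against 53.4 (1.82 ± 0.45, adjusted p = 0.0923, edgeR). Mki67, the Ki-67 antigen of cycling cells, stood at 105.1, 89.3, 96.2 and 107.6 CPM against 81.99 (-0.28 ± 0.24, adjusted p = 0.768), below all 4 animals, and Top2a, DNA topoisomerase II, at 162.6, 184.4, 180.2 and 148.3 against 172.1, within them. Cdk1, the mitotic kinase, stood at 198.1, 258.6, 257.6 and 199.4 CPM against 403 (0.82 ± 0.27, adjusted p = 0.258), and Ccnb1, its cyclin, at 59.9, 71.7, 68.8 and 66.6 against 92.2 (0.47 ± 0.32, adjusted p = 0.690). Both lay above every animal without passing the test.

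No gene of the 23 G1 cyclins, Cdk inhibitors and pocket proteins passed the test (median 0.36). Ccnd1, cyclin D1, stood at 703, 1086, 923 and 1015 CPM against 1682 in the pool (0.85 ± 0.26, adjusted p = 0.204, edgeR), with every block (1510 to 1919) above the animals. Cdkn1a, the Cdk inhibitor p21, stood at 165.3, 69.2, 88.3 and 56.1 CPM against 40.6 (-1.22 ± 0.58, adjusted p = 0.490), with animal 1 far above the others. Cdkn1b, p27, stood at 43.04, 41.8, 37.6 and 38.9 CPM against 38.1. None of 26 nucleotide synthesis genes passed either, and 20 had an estimate above 0 (median 0.37), among them Tk1, thymidine kinase, at 171.03, 276.3, 231.8 and 304.2 CPM against 427 (adjusted p = 0.222).

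Shares of cells with a read were compared after each cell had been thinned to 200000 reads, which left out 10 proliferative, 29 extravascular and 52 latent cells. These shares are a description: brackets give 95% exact binomial intervals, which cover counting error only, since the reads carry no molecular identifiers. Mki67 was read in 74.01% of pool cells (67.8 to 79.6) and in 68.3% ± 6.85 of cells over the animals (SD, n = 4), where the values ran from 62.1% to 74.3%. Top2a was read in 86.3% of pool cells and 83.3% ± 2.68 over the animals, and Ccnb1 in 66.96% and 55.2% ± 7.21. Mki67 and Top2a in the pool thus fell within the animals' range, whereas Cdk1 was read in 92.5% (88.3 to 95.6) against 79.03% to 87.8%, and Aurkb in 52.9% (46.1 to 59.5) against 19.7% to 33.3%. Without thinning the shares were 79.7% and 70.8% for Mki67, 92.4% and 82.8% for Cdk1, and 60.8% and 32.8% for Aurkb, in the pool and as the mean of the animals. Unthinned, Mki67 ran from 61.3% to 78.05% in the animals, so that the pool lay above them.

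Lamb3 was read in a smaller share of the pool's cells. It had a read in 34.4% of pool cells (28.2 to 40.9) and in 50%, 68%, 61.3% and 56.8% of cells of the 4 animals, and unthinned in 40.9% and, as the mean of the animals, 66.8%. Itgb1 was read in every thinned pool cell and in 99.6% ± 0.806 of cells over the animals. Among higher genes, S100a16 was read in 49.8% of pool cells against 12.8% ± 3.45, Deptor in 50.2% against 20.9% ± 1.54, Psmb8 in 82.8% against 58.4% ± 8.04, and Fos in 67.8% against 42.6% ± 2.83. At the same number of reads the median cell had 5972 detected genes in the pool and 4918 to 5247.5 in the animals, a difference that moves with these shares and whose part in them was not tested.

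**Figure D4:**
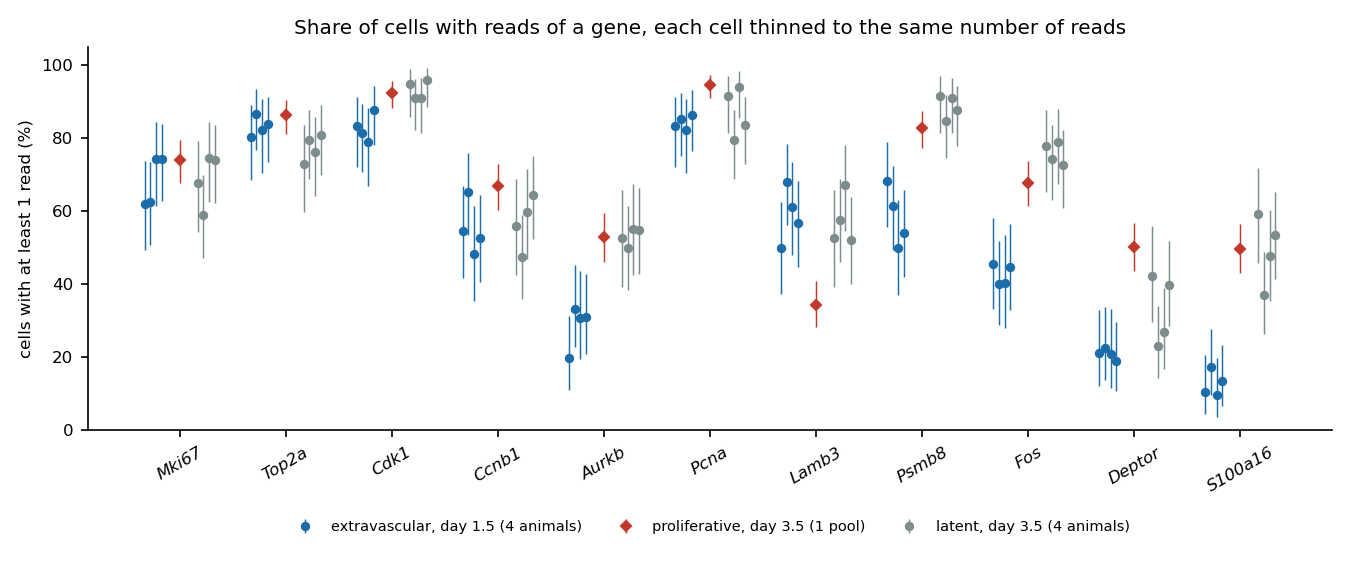
Percent of cells (y axis) with at least 1 read of each gene (x axis) after thinning to 200000 reads, in the 4 extravascular animals (blue), the proliferative pool (red) and the 4 latent animals (gray), with 95% exact binomial intervals. The pool lies within the animals for Mki67, below them for Lamb3 (34.4% against 50% to 68%), and above them for Aurkb, Psmb8, Fos, Deptor and S100a16.

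Within the pool, cells differed widely in the number of G2 and mitosis genes detected after thinning. The median was 38 of 54 genes (quartiles 27 and 45, lowest 10, highest 54). In the extravascular animals the medians were 31, 32, 33.5 and 33.5. At least 30 of these genes were detected in 68.7% of pool cells, 61.01% of extravascular cells and 63.2% of latent cells. S-phase genes had a median of 29 in the pool and 24 to 26.5 in the animals. These numbers rise with the number of genes detected per cell, which was higher in the pool.

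**Figure D5:**
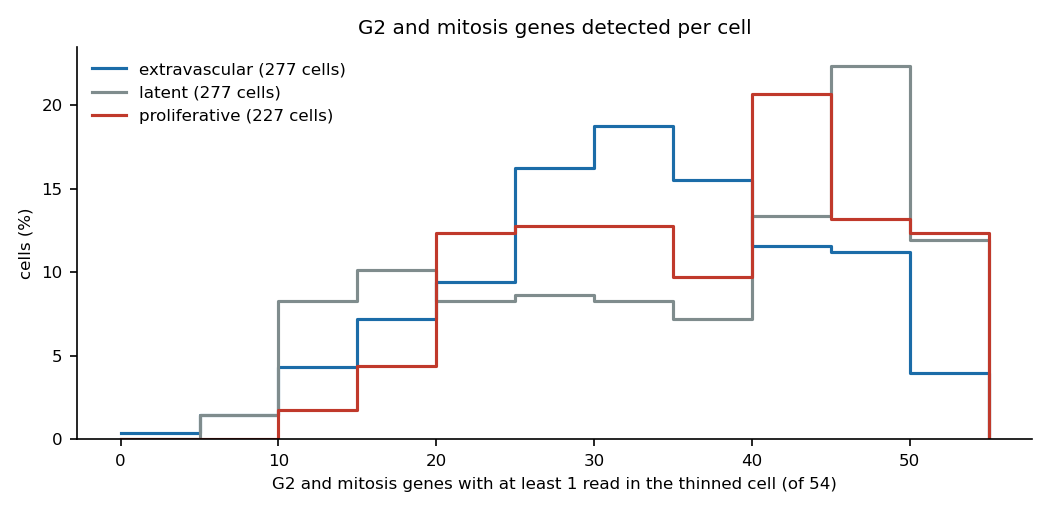
Distribution over cells (y axis, percent of cells in bins of 5 genes) of the number of G2 and mitosis genes detected per thinned cell (x axis, of 54) in the extravascular (blue), latent (gray) and proliferative (red) gates. The curves overlap over most of their range, and 68.7% of proliferative and 61.01% of extravascular cells lie at 30 or more.

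The remaining lists are given beside the 0.696% of all genes called. Among genes of the epithelial to mesenchymal transition 1.8% passed: Ecm1 and Tspan4 were higher and Fbln2, Itgb1, Pmepa1 and Arhgef40 lower, with a median of -0.06, equal to that of all genes. Of 16 extravasation genes 1, Itgb1, was lower (median -0.44), and of 15 TGF-β targets 1, Pmepa1, was lower (0.06). No gene passed among 27 epithelial and mesenchymal markers (median 0.11), where Vim, vimentin, stood at 1478, 1778, 1810 and 2219 CPM against 2477 (adjusted p = 0.314, edgeR). None passed among 18 matrix metalloproteinases and Timps (-0.03), 22 chemokines and cytokines (-0.49), 30 noncanonical Wnt genes (-0.28), 20 hypoxia genes (-0.37), 24 sterol (0.13) and 13 fatty acid (-0.18) synthesis genes, 29 genes of the integrated stress response (0.17), 19 p53 targets (0.05) and 16 genes of DNA methylation (0.19). Ccl5, a chemokine that attracts T cells, stood at 287.2, 219.8, 204.3 and 14.6 CPM in the animals and 20.2 in the pool (adjusted p = 0.429), so that animal 4 stood with the pool.

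Latent cells of the same day show which of these differences were also between the day 3.5 gates. Against the 4 latent animals 0 of 19249 genes (0.0%) were called by edgeR, and 977 (5.08%) reached an unadjusted p under 0.05. DESeq2 called 89 genes. With limma-voom 0.613% were called, and 1.01% with the animal as a random replicate block (in data simulated for the extravascular comparison, DESeq2 and limma-voom recovered more changed genes and called more unchanged ones than edgeR). Both comparisons use the same pool, latent replicate 4 carries its animal number, and an absent call does not show that gates are alike. Of the 26 higher genes the pool lay within the latent range for 11, above it for 10 and below it for 5, and of the lower genes within it for 42, above it for 35 and below it for 31. Over all genes the pool lay above the latent animals in 22.1% and below them in 18.6%. For Lamb3, Fermt1 and Pmepa1 the pool lay below the latent animals too, although none passed the test: Lamb3 was at 53.7, 41.3, 63.4 and 57.1 CPM in latent animals against 22.8 (log2 fold change, proliferative minus latent, -1.24 ± 0.30, adjusted p = 0.675, edgeR), Fermt1 at 179.5 to 212.6 against 91.4 and Pmepa1 at 30.6 to 39.3 against 11.4, without overlap. Itgb1 (296.2 to 378.4 CPM against 260.9) and Rrbp1 (113.4 to 133.6 against 91.3) lay closer. Ribosomal proteins (mean log2 CPM 9.53 to 9.70 against 9.64), Fos, Dusp1 and S100a16 of the pool lay within or near the latent range, and Psmb8 of the pool (246.2 CPM) lay below it (325.98 to 405). Of S-phase genes all 43 had an estimate above 0 against latent animals, where 43.5% of all genes did, with a median of 0.49, and 19 had an unadjusted p under 0.05. The G2 and mitosis list had a median of -0.04 in that comparison.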

How the data were processed

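Tumor cells were sorted into plates and libraries were made per cell by a modified SMART-Seq2 protocol without molecular identifiers. Per the study's methods and the submitters' processing notes, bcl2fastq, Salmon 0.7.2 on GRCm38 and tximport were used, and the annotation release is not given in the sources used here. The authors deposited estimated counts per gene and cell (35299 genes), of which 36.0% of values above 0 were not whole, and a filtered table (21858 genes) of log10 values, made from the estimated count over the mean of housekeeping genes. Gates and animals came from the deposited annotation. 0 rows named no gene and 0 columns of per-sample values were left unused. Tables of endothelial cells were not used.

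Estimated counts of kept cells (237 of 384 sorted proliferative, 306 of 384 extravascular, 329 of 384 latent and 325 of 384 intravascular) were summed per animal, or over the proliferative pool, and rounded to whole numbers. Sums of 13 libraries were filtered (filterByExpr), scaled by TMM and tested with edgeR 4.0.16 (quasi-likelihood, 9 residual degrees of freedom) in R 4.3.3, with Benjamini-Hochberg adjustment and a threshold of 0.05, and SE is the absolute log2 fold change over the square root of F. An exact permutation test of 4 animals against 1 pool cannot reach 0.05. By the annotation the 4 libraries of a gate are separate animals, except in the pool, but the intravascular and extravascular gates share their 4 animals, and latent replicate 4 shares its animal with the pool. Deviations from the gate mean (4707 genes) correlated at -0.071 to 0.339 between the intravascular and extravascular libraries of the same animal and at -0.291 to 0.185 between other animals. The tests were checked on simulated data. DESeq2 1.42.0 and limma 3.58.1 (log2 of mean CPM plus 1, mean log10 values, or voom) served as alternatives. Named genes were the 12 with the largest log2 fold change in each direction among those called, with 20 CPM or more in each library of the higher group and without predicted, pseudogene or mitochondrial genes, plus up to 4 called members of each list (or 2 of highest level where none was called) and 11 fixed genes. Other genes given with values, as list members or markers, were chosen after their values were seen. The members and lists were chosen with earlier results of these data known. Coordinates are those of GENCODE on GRCm38, with promoters from RefSeq on GRCm38.p6. For Myc no promoter was found in the RefSeq table. No protein sequence was used. Some genes are not reported here and were left out of the lists.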

Additional observations from a re-analysis of the deposited data

Results flagged for a closer look

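Among the groups of 4 animals compared, 14 (7.61%) had a value set apart from the other 3 by Dixon's criterion, and chance gives about 1 in 20. In extravascular animal 1, Ifitm3 stood at 1276 CPM (others 985 to 999), S100a4, a calcium-binding protein of motile cells, at 5114 (3449 to 3567), Pmepa1 at 48.2 (39.6 to 40.3), Nmnat1 at 177.3 (123.6 to 130.1), Itga2b, a platelet integrin, at 2.26 (0.315 to 0.485), and H2-K1 lower at 225.5 (338.5 to 360.03). In animal 2, Map2k5 stood at 8.20 CPM (7.16 to 7.28). In animal 3, Psmb8 stood at 72.7 CPM (102.2 to 107.8) and Dnmt1, the maintenance DNA methyltransferase, at 124.9 (168.4 to 175.4). In animal 4, Lamb3 stood at 69.8 CPM (84.95 to 86.6). Among latent animals, Ldha, lactate dehydrogenase, stood at 799.9 CPM in animal 1 (871 to 883), Atp5j2 at 430.2 in animal 2 (498 to 509), Cd3d, a T cell gene, at 0.469 in animal 2 (0.318 to 0.324), and Zfp934 at 19.5 in animal 3 (13.4 to 14.3).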

How the results depend on the processing

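Of 39 called genes named by the rule, under 19 alternatives each (741 pairs), none reversed and 552 pairs passed again, and of 53 not called 11 passed under some alternative. Calls were lost under 8 of the 19 alternatives for Map2k5 and Ddx21, and under 7 for Psmb9, Pbld1 and Uap1l1. They were lost under 6 for Deptor, Dusp1, Fos, Mospd3 and Hells. The losses of Nmnat1, Atp5j2, Uqcrq and Myc are given above. Cela1, Cidea and Mturn, named for their few cells, had an estimate below 0 with each library centered. The shares of tested genes called higher and lower than in extravascular cells, 0.135% and 0.561%, moved as follows. RLE size factors gave 0.301% lower (58 genes), no filter on low counts 0.210% lower (56), and DESeq2 1.3% and 2.28%, with all but 5 of the main calls still made. A fit of the 5 libraries compared gave 0 and 0 by edgeR, with 1459 genes at an unadjusted p under 0.05. Mean CPM per cell gave 0.374% and 0.234% (72 and 45), mean log10 values 7.31% higher (1351), and leaving out cells over 5% mitochondrial reads 0.211% higher (40). Leaving out each extravascular animal gave 0.0157% to 0.162% higher and 0.0157% to 0.455% lower, the lowest without animal 4. Of the alternatives chosen after seeing the data, centering each library on the log10 scale gave 5.39% and 3.16% (996 and 585), leaving out block 1 of the pool 0.255% and 1.08%, leaving out block 3 0.0779% and 0.218%, and leaving out the 4 intravascular libraries 0.0867% and 0.125% (16 and 23). Limma-voom gave 3.59% and 2.9% with no replicate block and 3.71% and 2.91% with the animal as a random replicate block. Against latent animals 0 genes were called, also without each latent animal, but 89 (0.462%) with DESeq2, 1 (0.00541%) on mean log10 values, 13 (0.0675%) on mean CPM per cell 80 (0.433%) with centering, 0.613% with limma-voom and 1.01% with its replicate block. The cause of these changes was not tested. On simulated data DESeq2 and limma-voom called far more unchanged genes than edgeR (above). Over the 20 settings, the median log2 fold change against extravascular animals changed sign in 16 of 33 gene lists: ribosome biogenesis (-0.15 to 0.36), hypoxia (-0.52 to 0.18), fatty acid synthesis (-0.22 to 0.53), integrated stress response (-0.02 to 0.48), p53 targets (-0.12 to 0.34), Wnt targets (-0.15 to 0.75), canonical Wnt (-0.24 to 0.09), noncanonical Wnt (-0.45 to 0.17), the Wnt pathway (-0.20 to 0.14), epithelial to mesenchymal transition (-0.10 to 0.13), extravasation (-0.46 to 0.07), stemness and dormancy (-0.18 to 0.34), TGF-β targets (-0.22 to 0.34), epithelial and mesenchymal markers (-0.14 to 0.19), integrins and matrix (-0.40 to 0.06), and metalloproteinases and Timps (-0.13 to 0.27). It stayed above 0 in 11 lists and below 0 in 5, of which the ribosomal protein and laminin-332 lists were drawn up after values had been seen. With at least 5 reads in place of 1, the pool minus the mean of the animals was 0.316 percentage points for Top2a and 16.9 for Cdk1. Fits with the pool split by the replicate numbers of the labels, and fits leaving out each of these, were not run. A fixed block cannot be estimated between the days, and proliferative cells could not be tied to the replicate numbers of the labels.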
